A study of Mus musculus with 12 samples.

Results

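The 10 genes described here, Egr1, Egr2, Egr3, Nr4a1, Nr4a2, Klf2, Klf6, Ier2, Zfp36 and Dusp1, are immediate-early genes and early feedback regulators, and the data are ATAC-seq summits, the points of highest transposase insertion in each peak of open chromatin. Summits with a score, the −log10 of the peak caller's q-value, of at least 3 were taken from 12 lists, windows of 250 bp on each side were merged wherever they overlapped, and a region belonged to a member gene when its best summit lay in the GENCODE gene body or within 10 kb of it. This gave 51 member regions of 71006 regions in all. The lists came from hematopoietic stem cells (HSCs; Lin-/cKit+/Sca1+/Flk2-/CD48-/CD150+) of the bone marrow of C57BL/6 mice. There were 4 groups of 3 libraries each: young WT and young Mlkl-/- mice of 3 months, and aged WT and aged Mlkl-/- mice of 18 months. Mlkl encodes the pseudokinase that executes necroptosis. Each library was a pool of sorted HSCs from several mice, and the labels name no other allele or treatment. By the study's methods each young library pooled more mice than each aged library, so pool size also differed with age.

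Immediate-early genes are transcribed within minutes of a signal without new protein synthesis, because the factors that switch them on, such as serum response factor and CREB, are already present in the cell. Egr1, Egr2 and Egr3 encode zinc finger transcription factors, Nr4a1 and Nr4a2 encode orphan nuclear receptors, and Klf2 and Klf6 encode Krüppel-like factors. Ier2 encodes a small nuclear protein, Zfp36 encodes tristetraprolin, which destabilizes mRNAs with AU-rich elements, and Dusp1 encodes a phosphatase that switches off MAP kinases. Egr1 and the Nr4a receptors are known for holding HSCs in quiescence, and these genes are also known to respond to the handling of cells.

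The shortest list held 35714 and the longest 61495 summits with a score of at least 3, with 35714 to 56368 in the 6 young lists and 47032 to 61495 in the 6 aged lists. Read depth was not given in the lists, so the number of libraries limited the precision. Mlkl itself had a summit within 1 kb of an annotated start in 3 of 3 lists of each group, and a summit list cannot show whether the gene makes protein. Of 12 HSC marker genes, 4 had a summit at a start in all 12 lists and Slamf1, which encodes the CD150 used in the sort, in none. Of the 6 T and NK cell markers all were at 0, of the 6 B cell markers 5 were at 0 and of the 8 myeloid markers 7 were at 0, with at most 1 marker open in any list for the last pair of sets. Erythroid markers were open in 1 to 4 of 6 genes per young list and 2 to 3 per aged list, with Hba-a1 and Klf1 at 0 in all 12, and markers of stroma and endothelium in 2 to 3 and 2 to 4 of 6 genes, with Cdh5 at 0. Summits at single-copy Y genes, which mark male cells, were present in 3 of the 6 young lists and in none of the 6 aged lists. These differences in list length and Y-linked summits ran with age. Fits with each as a covariate are given for a distal Zfp36 site. For the starts of Egr1, Ier2 and Dusp1 the fit with list length is given, and for most other regions neither.

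Sequence was read from the mm10 genome (RefSeq GRCm38.p6) around the best summit of each region. The first windows are shown for the elements through which immediate-early promoters are known to be switched on. The CArG box, the binding site of serum response factor, occurred within 100 bp of the summit in 6 of the 51 member regions (11.8%) and in 0.953% of all 71006 regions. For regions at the members' own starts the share was 4 of 14 (28.6%), beside 0.73% of all regions near starts. Egr2 and Egr3 had the box at their starts, and Egr3 had another 2.26 kb upstream. The start window of Egr1 lay by an internal annotated start, so the 5′-most start of Egr1 was not searched. The 30 bases around each box are given on the strand of the member gene, with the box in capitals. The Zfp36 window was called in 4 of the 12 full lists and the Klf6 window in 1, and the sixth match lay 687 bp from an annotated Dusp1 start, next to Ergic1. A match is a description of the letters and not of binding.
Egr2 start, chr10:67537484-67537513: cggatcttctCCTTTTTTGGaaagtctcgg
Egr3 start, chr14:70076833-70076862: ctttgtctgtCCATATATGGgcagctacgt
Egr3 upstream, chr14:70074861-70074890: ctgtgcggttCCTTTAAAGGctgcgggttc
Zfp36 start, chr7:28379267-28379296: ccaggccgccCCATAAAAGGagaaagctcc
Klf6 intron, chr13:5863680-5863709: tgagccgggtCCTTATTTGGctgcaggtca

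The cyclic AMP response element TGACGTCA, the site of CREB and its relatives, lay in 3 of the 51 member regions (5.88%) and in 0.827% of all regions. It was found at the start of Ier2, at an internal start of Nr4a2 and at the start of a neighbouring transcript within the Dusp1 gene model. RefSeq promoters (250 bases before to 50 after a start, GRCm38.p6) covered 7 of the 10 members, without Egr1, Egr3 and Ier2. Among these promoters the element was in that of Dusp1, or 14.3% beside 2.03% of 27025 genes. The CArG box was in those of Egr2 and Zfp36, or 28.6% beside 1.81%. The first pair are shown because both starts differed between young and aged lists without overlap, and in opposite directions. Capitals mark the element.
Ier2 start, chr8:84662879-84662908: tggtgttgcagTGACGTCActctcagtata
Nr4a2 internal start, chr2:57115067-57115096: agccccagtcgTGACGTCAggtcggaaata

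The next pair of windows are neighbours upstream of Zfp36, and are shown because the distal site passed the test with age and the proximal site did not, a difference that was itself not tested. Each spans 100 bp on both sides of the summit on the minus strand of mm10, the strand of Zfp36. Capitals mark TGTGGT, the core of the RUNX site, or its reverse complement, GGAAGT, a core of the ETS site, and GGGCGGG, a KLF and SP site, or its reverse complement. The RUNX core stood in 6 of 51 member regions (11.8%) and in 23.0% of all regions, so the RUNX match at the distal site is a common one. A half-site of the cyclic AMP response element, not marked, was also found in the distal window. It stood in 18 of 51 member regions (35.3%) and in 13.4% of all regions.
Zfp36 distal, 2.77 kb upstream, chr7:28382928-28383128: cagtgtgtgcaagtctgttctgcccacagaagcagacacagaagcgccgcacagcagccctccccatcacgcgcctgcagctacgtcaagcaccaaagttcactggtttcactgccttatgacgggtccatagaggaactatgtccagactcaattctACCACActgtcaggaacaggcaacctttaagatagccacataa
Zfp36 proximal, 1.93 kb upstream, chr7:28382078-28382278: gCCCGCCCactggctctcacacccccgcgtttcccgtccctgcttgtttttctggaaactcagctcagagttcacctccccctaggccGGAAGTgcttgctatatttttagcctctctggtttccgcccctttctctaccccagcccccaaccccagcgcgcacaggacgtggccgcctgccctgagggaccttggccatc

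All 10 loci were open in every list, but at very different ranks. The rank of the locus' highest summit within its own list, where 1 is the summit of highest score, had its best median at Klf6 (1370.5 over the 12 lists) and its lowest at Egr3 (13515.75). Between them stood Nr4a2 (2340.75), Nr4a1 (2857.75), Klf2 (3190.25), Egr1 (5648.5), Zfp36 (7551), Dusp1 (9663.75), Egr2 (10470.75) and Ier2 (11546.25). Neighbours in this order overlapped. Klf6 ranged from 154 to 2067 and Nr4a2 from 823 to 4393, while the top of the order did not overlap the bottom: the lowest rank of Klf6, 2067, stood above the highest of Egr3, 7846.5. The Krüppel-like and orphan receptor genes thus took the upper places, and the 3 EGR genes were spread from the middle to the end. The summits that set these ranks were not always at the gene's start. At Nr4a1 the best summit lay 7.81 kb upstream of the nearest annotated start in 12 of 12 lists, and at Ier2 it lay 5.96 kb from the start, downstream of the gene, in 12 of 12 lists. At Klf6, Klf2 and Nr4a2 it was within 1 kb of a start in 12 of 12 lists. At Egr1 the start held the best summit in 4 of 12 lists and the site 3.44 kb upstream in the other lists. At Egr2 an own start held it in 8 of 12 lists, and otherwise a region 294 bp from the start of Ado. At Zfp36 an own start held it in 7 of 12 lists. Otherwise it lay 306 bp from the start of Plekhg2 or 3.55 kb from the nearest Zfp36 start, downstream of the gene. At Dusp1 an own start held it in 6 of 12 lists, among them Aged Mlkl-/- 2, where the region lay 48 bp from the Ergic1 start. Otherwise it lay 54 bp from the start of AC122252.2, 29 bp from that of AC122252.1 or 10.7 kb from the nearest Dusp1 start, downstream of the gene. The Dusp1 window was also the widest of the 10, at 76539 bp beside 21522 bp for Ier2. The ranks of Egr2, Zfp36 and Dusp1 thus rest in part on starts of other genes.

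**Figure D1:**
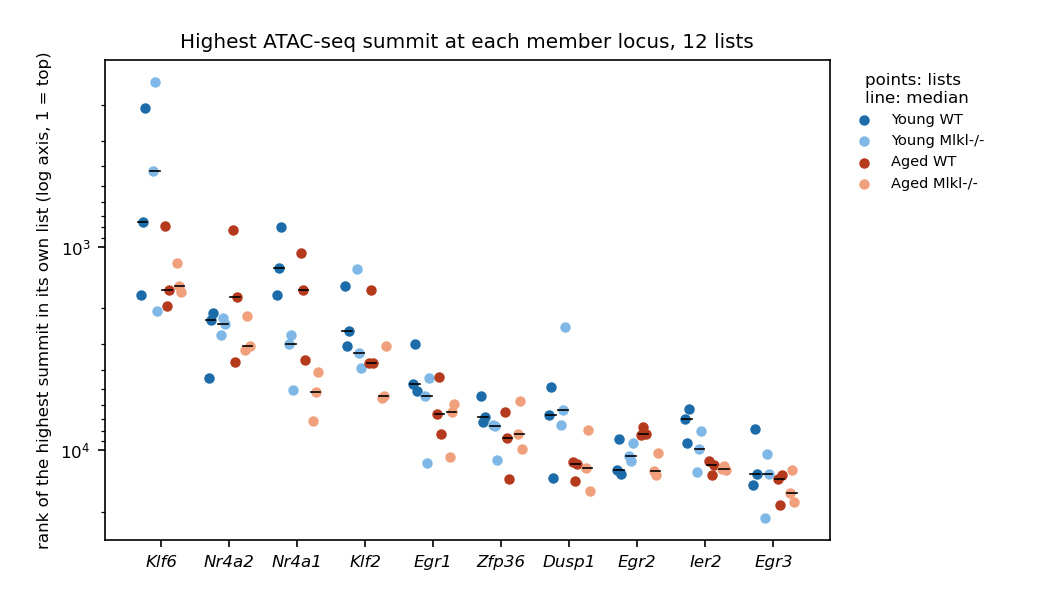
Rank of the highest summit at each of the 10 loci (vertical log axis, 1 = top of the list), with 1 point per list coloured by group and a line at each group's median of 3. Klf6 sits highest, between 154 and 2067, and Egr3 lowest, between 7846.5 and 21534.

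Of the 51 member regions, 14 had their summit within 1 kb of an annotated start of the member itself, 5 within 1 kb of the start of another gene and 32 away from starts. The 14 included 2 starts each for Nr4a1, Nr4a2, Zfp36 and Dusp1. A larger share of the member regions than of regions at large was called throughout. In all, 26 of 51 (51.0%) held a summit in all 12 full lists, beside 28.6% of all regions. At own starts this was 12 of 14 (85.7%), beside 59.7% of all regions near starts. Regions away from starts were in all 12 full lists in 10 of 32 cases (31.2%), beside 17.8% of all such regions. The start of Zfp36 itself was an exception. A region in its UTR 27 bp before an annotated start, chr7:28379032-28379548, had a summit in 4 of the 12 full lists, whereas a region 979 bp upstream of another annotated start had one in 12 of 12. Dusp1 needs care, because its GENCODE model (chr17:26505590-26562128) reaches the start of Ergic1, and a region counted as a second Dusp1 start lies 48 bp from the Ergic1 start.

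For the comparison of groups, all lists were shortened to the 35714 best-scoring summits, regions were ranked within a list and ranks were turned into normal scores, with regions not called sharing the lowest score (between −0.575 and −0.525). A change is therefore a difference in mean normal score, a relative rank and not an amount of accessibility. In all, 35 of the 51 member regions were called in at least 3 equal-length lists and entered the limma fit with 37867 regions in all. The other 16 were called too seldom to be tested. Each equal-length list held between 28 and 35 member regions, with means of 32.7 ± 0.577 (SD, n = 3) for young WT and 33.3 ± 1.53 for young Mlkl-/- lists. The means for aged lists were 30.7 ± 3.06 (WT) and 33.0 ± 1.73 (Mlkl-/-). The number of open member regions at equal list length thus overlapped between all 4 groups.

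**Figure D2:**
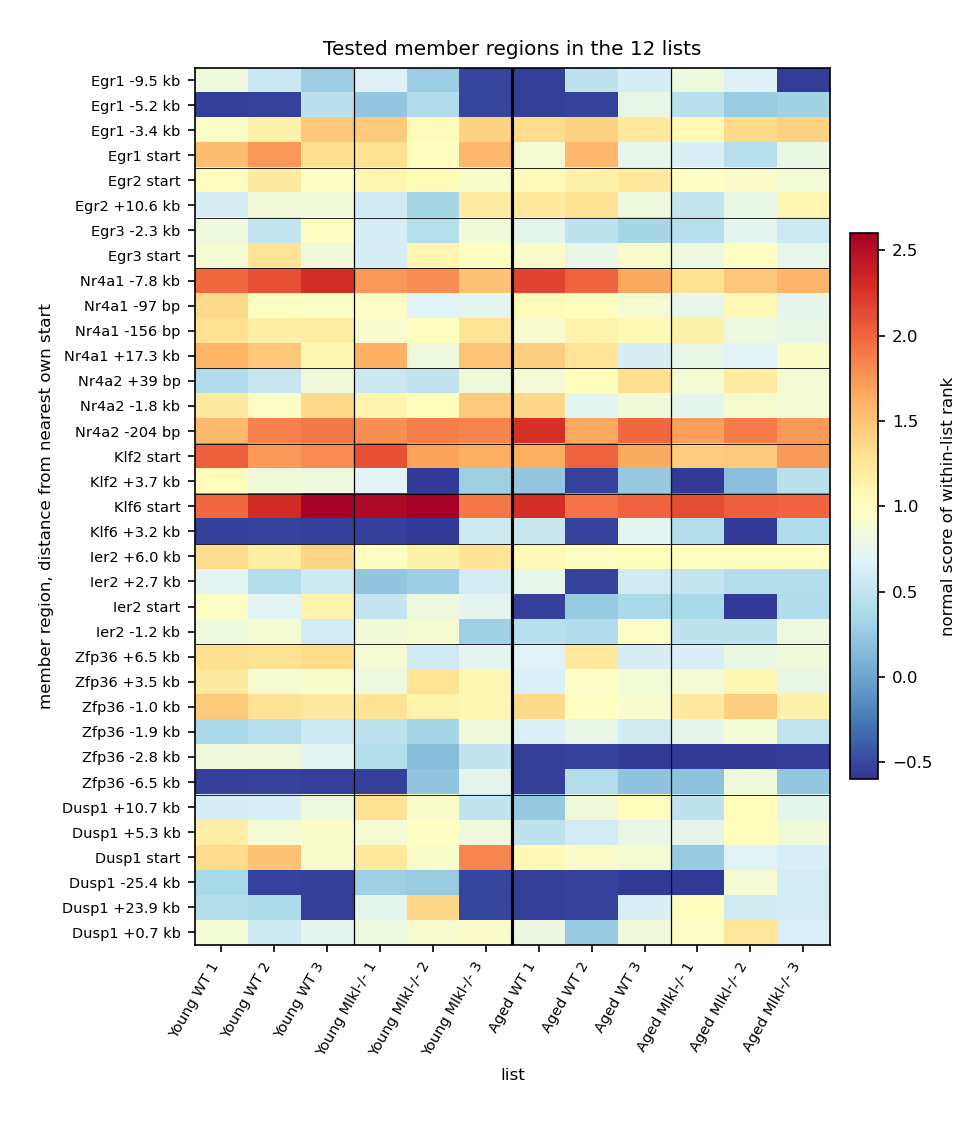
Normal score of the within-list rank (colour) of the 35 tested member regions (rows, named by gene and distance from the nearest own start) in the 12 lists (columns), with the thick line between young and aged lists. Rows at the starts of Klf6 and Klf2, at Nr4a2 −204 bp and at the upstream site of Nr4a1 are high throughout, and the Zfp36 row at −2.8 kb is at the lowest score in all 6 aged lists.

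With age, 1 of the 35 tested member regions passed the threshold (limma, Benjamini-Hochberg adjusted p under 0.01), and it fell. Over all regions 2.72% passed, 1.72% higher and 0.998% lower, so the members' share was near this background. The region was the distal site 2.77 kb upstream of the nearest annotated start of Zfp36 (chr7:28382751-28383371), which lies in the body of the transcript Gm44710. For the 3 young WT lists the summit ranked 16091, 16351 and 19476, and for the young Mlkl-/- lists 28550, 35501 and 27254. Among aged lists it was found at rank 53445.5 of Aged WT 1 and was absent from the other 5. The young WT libraries were highest, the young Mlkl-/- libraries lower, and no aged library came near either. Its mean normal score was 0.58 ± 0.27 in young and −0.55 ± 0.02 in aged lists (SD, n = 6), a change of −1.14 ± 0.21 (SE, limma adjusted p = 0.00225). All 6 aged values are the score given to uncalled regions, so the SD of 0.02 is no measure of spread between aged libraries at this site. At equal length all 6 young lists and none of the 6 aged lists held the region, as was the case for 0.18% of all regions, while 0.368% showed the opposite pattern. In pooled cells, fewer cells with the site open and less opening per cell cannot be told apart. Within WT the change was −1.35 ± 0.29 (limma adjusted p = 0.0272) and within Mlkl-/- it was −0.92 ± 0.29 (limma adjusted p = 0.11), and their difference of 0.42 had a limma adjusted p of 0.966.

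List length and Y-linked summits moved with age as well. With list length as a covariate the change at this region was −1.06 (limma adjusted p = 0.06), and with Y-linked summits, an alternative chosen after seeing the data, it was −1.17 (limma adjusted p = 0.0172). In the full lists, where aged lists were longer, the region had a summit in 6 of 6 young and 1 of 6 aged lists. The proximal neighbour 1.93 kb upstream of Zfp36 was called in all 12 lists, at ranks of 16588 to 31009 in young and 14938 to 24974 in aged lists, with a change of 0.18 ± 0.17 (limma adjusted p = 0.57). The region 979 bp upstream, the highest near the Zfp36 start, ranked 5429 to 11275 in young and 5683 to 13741 in aged lists, a change of −0.06 ± 0.12 (limma adjusted p = 0.804). The difference in age change between neighbours was not tested. With windows of 500 bp the distal site merged with its neighbour and the change was −0.06 (limma adjusted p = 0.805).

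**Figure D3:**
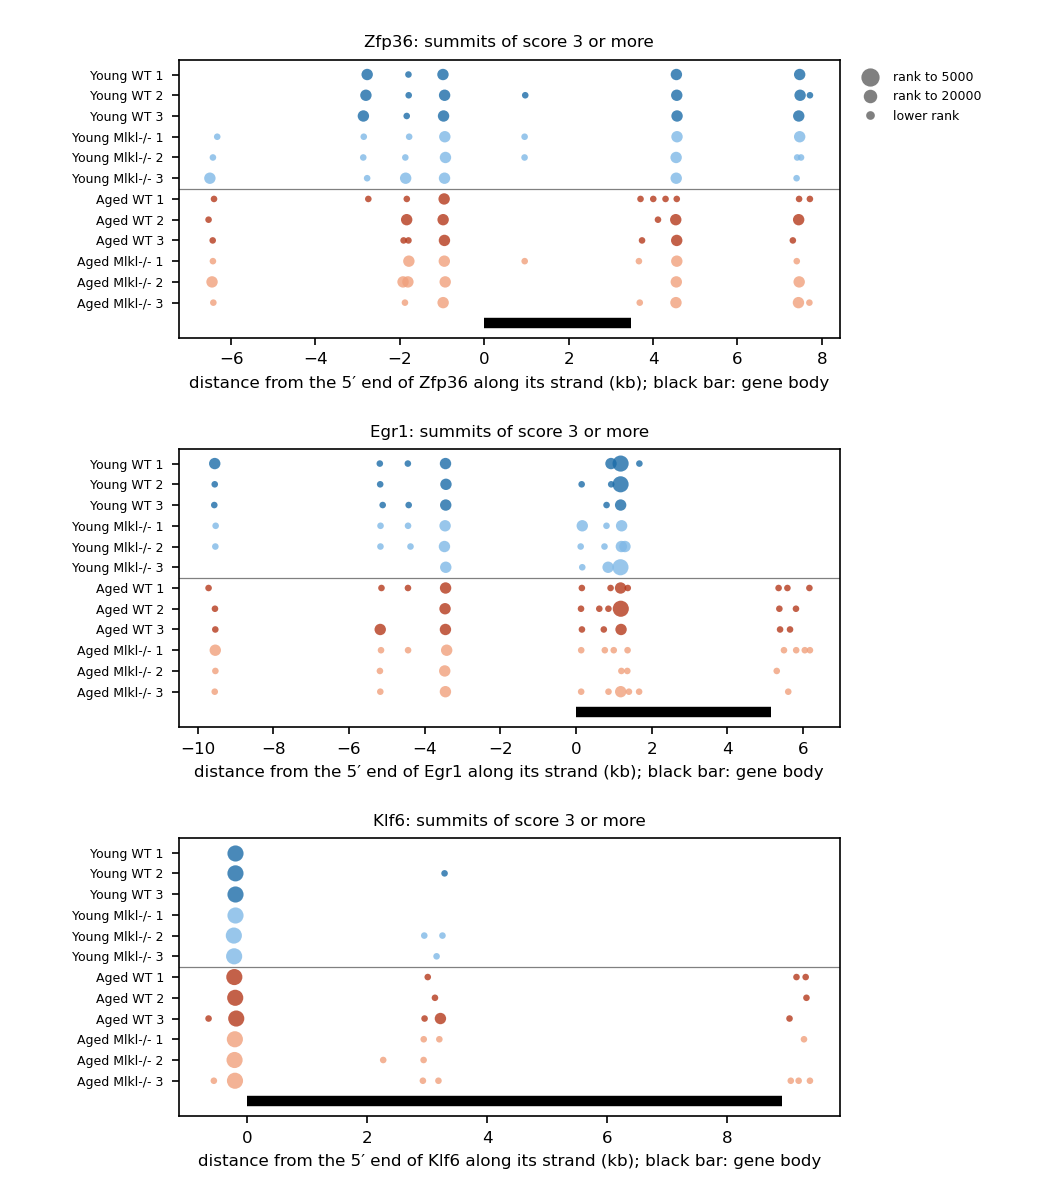
Summits of score 3 or more along Zfp36, Egr1 and Klf6 in the 12 lists (1 line per list, coloured by group), against the distance in kb from the 5′-most annotated end of the gene along its strand, with larger points for better ranks and a black bar for the gene body. The column of points near −2.8 kb of Zfp36 is present in 6 young lists and 1 aged list, whereas points past the end of Egr1 occur in the 6 aged lists.

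The starts of Egr1, Ier2 and Dusp1 had lower mean normal scores in aged lists without passing the threshold of 0.01. All 3 were under an adjusted p of 0.05, at which 3.34% of all regions were lower and 4.4% higher with age. In all, 4 of 35 member regions were lower at that level and 0 of 35 higher. The members were chosen with earlier results of these data known, which limits what these counts can show. The level was not kept under many alternatives. Of 25, it was met in 13 by Egr1, 9 by Ier2 and 10 by Dusp1, and with a replicate block the limma adjusted p was 0.0513, 0.0603 and 0.0676.

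The Egr1 start region (chr18:34859697-34861748) has its summit 206 bp before an annotated start, in the UTR. It ranked 4715, 2992 and 7138 for young WT and 7143, 12095 and 4402.5 for young Mlkl-/- lists. The aged WT lists had 14929, 4355 and 17379, and the aged Mlkl-/- lists 20806, 27162 and 16926. The aged Mlkl-/- lists lay below all young lists, and Aged WT 2 lay among the young ones. The change was −0.56 ± 0.15 (limma adjusted p = 0.031), and it was −0.69 without Aged WT 2 (limma adjusted p = 0.00797). With list length as a covariate it was −0.44 (limma adjusted p = 0.3). The upstream site of Egr1 at −3.44 kb ranked 5131 to 13520 in young and 5902 to 10736 in aged lists, a change of 0.06 ± 0.13.

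At the start of Ier2 (chr8:84662089-84663144, summit 17 bp upstream, the start with the cyclic AMP response element shown above) the ranks were 13512, 19922 and 10172 for young WT and 24992, 16176 and 19974 for young Mlkl-/- lists. They were 40733, 35471 and 29504 for aged WT lists, and 29687 and 28509 for aged Mlkl-/- lists, with no summit in Aged Mlkl-/- 2. Every young list ranked it above every aged list. The change was −0.77 ± 0.23 (limma adjusted p = 0.0475). The summit downstream of Ier2 that set the rank of the locus went from 6276 to 12733 in young lists and from 11281.5 to 13156 in aged lists, a change of −0.20 ± 0.11 (limma adjusted p = 0.298).

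The Dusp1 start (chr17:26508100-26509310) ranked 6704, 4904 and 14009.5 for young WT and 8201.5, 13663 and 2467.5 for young Mlkl-/- lists. The ranks were 11349, 14206 and 14218 for aged WT and 32775, 19350.5 and 20911 for aged Mlkl-/- lists. Aged Mlkl-/- libraries stood below all others, and aged WT overlapped the young groups. The change was −0.55 ± 0.16 (limma adjusted p = 0.0424), with −0.30 ± 0.23 in WT and −0.80 ± 0.23 in Mlkl-/- and a limma adjusted p of 0.966 for the difference between them. With list length as a covariate the change was −0.33 (limma adjusted p = 0.447), and for the Ier2 start it was −0.96 (limma adjusted p = 0.113).

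**Figure D4:**
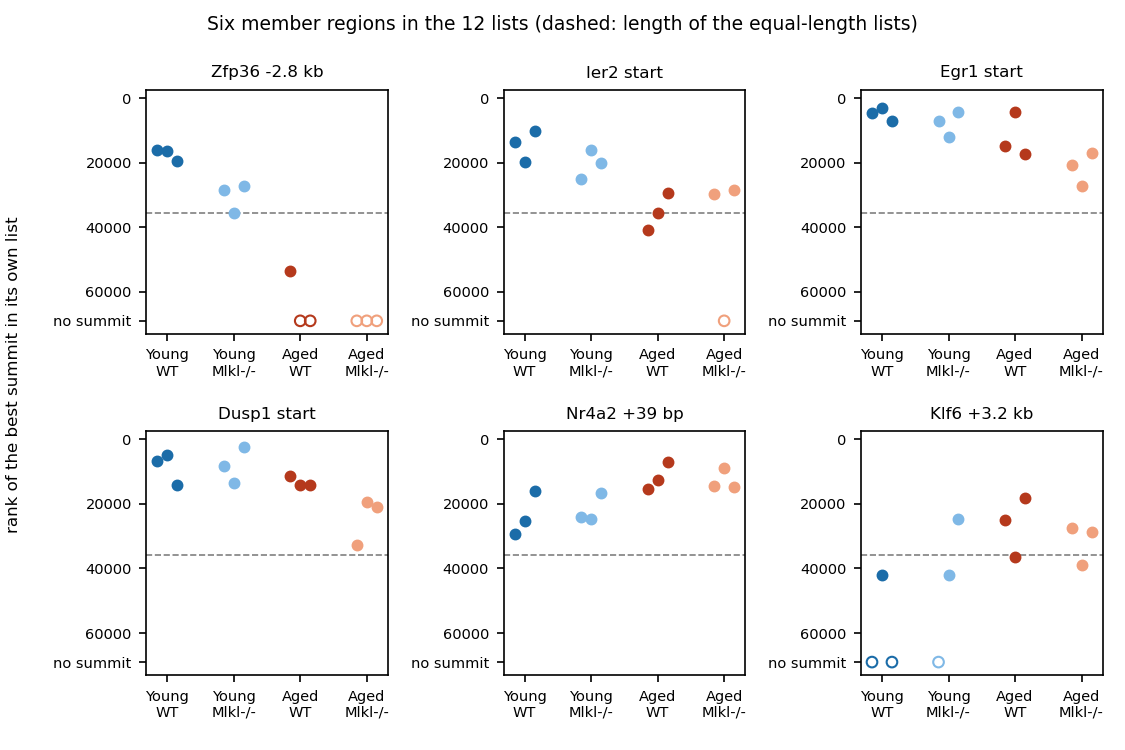
Rank of the best summit (vertical axis, best at the top) of 6 member regions in the 12 lists by group, with open circles for lists that had no summit and a dashed line at 35714, the length of the equal-length lists. Zfp36 at −2.8 kb and the Ier2 start separate young from aged lists downwards, the internal start of Nr4a2 separates them upwards, and the other 3 panels overlap.

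Of the 35 tested regions, 3 had values that did not overlap between the 6 young and the 6 aged lists, as had 3.88% of all tested regions. The third beside Zfp36 and Ier2 was the internal start of Nr4a2 (chr2:57114419-57115250, summit in the UTR 39 bp after an annotated start), named here after its values were seen. It ranked 29236.5, 25434 and 16103 for young WT and 24135, 24778.5 and 16779 for young Mlkl-/- lists. The aged WT lists had 15459, 12505 and 6930, and the aged Mlkl-/- lists 14475, 8761 and 14906. Here the aged lists were the higher ones, with a change of 0.42 ± 0.15 (limma adjusted p = 0.101). The upstream start of Nr4a2 (chr2:57123348-57124474), the strongest summit of the gene, ranked 2110 to 4393 in young and 823 to 3691.5 in aged lists, a change of 0.07 ± 0.12 (limma adjusted p = 0.798), and an intronic site between the starts at −1.81 kb had a change of −0.27 ± 0.14 (limma adjusted p = 0.262). The values at Nr4a2 thus differed in sign from site to site within the gene.

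The remaining starts had smaller differences. Egr2, the most even of the starts, ranked 8794.5 to 14501.5 in young and 8311 to 15273 in aged lists (−0.01 ± 0.12, limma adjusted p = 0.978). For Egr3 the change was −0.09 ± 0.14, for the Nr4a1 start with the better ranks −0.16 ± 0.12 and for Klf2 −0.18 ± 0.12. Klf6, the highest of all member regions, ranked 1729, 756 and 207 for young WT and 423, 154 and 2067 for young Mlkl-/- lists. The ranks were 786, 1942 and 1622 for aged WT and 1194, 1547 and 1654 for aged Mlkl-/- lists, a change of −0.33 ± 0.17 (limma adjusted p = 0.244). The 4 best of these ranks were in young lists, but the lowest rank was in a young list too. Inside Klf6, an intronic site at 3.22 kb (chr13:5864163-5865024) had calls at equal length in 1 young and 4 aged lists, a change of 0.53 ± 0.29 (limma adjusted p = 0.286). Downstream of Klf2, a site at 3.65 kb (chr8:72322280-72322949), given after its values were seen, ranked from 12107 to 40190 in young lists and from 26611.5 to 38514 in the 5 aged lists that held it, a change of −0.51 ± 0.27 (limma adjusted p = 0.256).

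Across the 35 tested member regions the median change was −0.105, beside −0.00726 for all tested regions and −0.0369 for all tested regions near starts. Of these members, 27 of 35 (77.1%) were lower in aged lists, beside 51.0% of all regions and 57.1% of all regions near starts. In the lists of related genes described below, 66.7% (other members of the families), 65.2% (AP-1), 60.6% (further immediate-early genes), 54.7% (upstream regulators) and 52.5% (Klf paralogs) were lower. The AP-1 median was −0.176. At an unadjusted p under 0.05 there were 6 of 35 (17.1%), 5 lower and 1 higher, beside 22.1% of all regions. The lower side was therefore more frequent among the members, as it was to a lesser degree in each list of related genes. The single changes were small against the spread between libraries. The members were chosen with earlier results of these data known, so these shares cannot be taken as independent of that choice. Within WT the median was −0.186 and 0 of 35 passed (0.201% of all regions), with 5 of 35 at an unadjusted limma p under 0.05 (14.6% of all regions). Within Mlkl-/- the median was −0.0598 and 0 of 35 passed (0.151% of all regions), with 4 of 35 at an unadjusted limma p under 0.05 (14.3% of all regions). The sign was the same in both genotypes for 23 of 35 (65.7%), beside 64.2% of all regions.

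**Figure D5:**
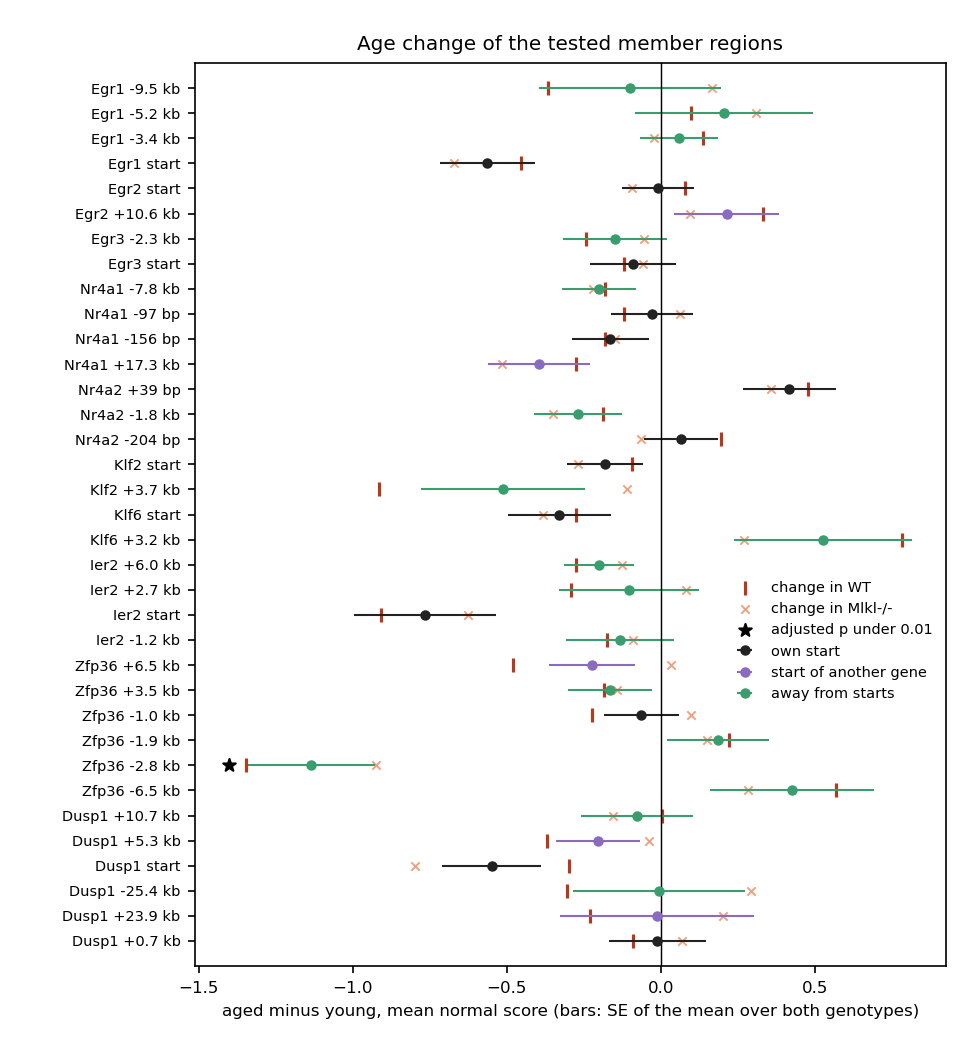
Difference in mean normal score between aged and young lists for the 35 tested member regions, with points and SE bars for the mean over both genotypes coloured by position, and marks for the change in WT and in Mlkl-/-. Most points lie left of 0, and the star marks the Zfp36 site, the 1 region that passed the threshold.

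By locus, where the value was the highest summit of each gene, 0 of 10 members passed with age in limma, beside 0.751% of 16509 protein-coding loci, and 1 of 10 had an unadjusted p under 0.05, beside 13.9% of all loci. That locus was Dusp1, with a change of −0.43 ± 0.15 (limma adjusted p = 0.163). Its highest summit lay in 5 different regions over the 12 lists, among them starts of other transcripts and, in Aged Mlkl-/- 2, the region 48 bp from the Ergic1 start. Klf6 followed at −0.41 ± 0.22 and Nr4a1 at −0.24 ± 0.17, while Nr4a2 and Egr2 were at 0.09 and 0.08. Within WT and within Mlkl-/- 0 of 10 loci passed, beside 0.0727% and 0.0787% of all loci, with 0 and 1 at an unadjusted limma p under 0.05, beside 9.5% and 10.0% of all loci.

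In the full lists, of unequal length, 4 of the 51 member regions were called in all 3 aged WT and none of the 3 young WT lists. The same held for 2562 of all 71006 regions. The opposite pattern was seen in 372 of all regions and in 0 member regions. The 4 sites are named here after their calls were seen. A region just downstream of Egr1 (chr18:34864878-34866255) appeared in none of the young and all 6 aged full lists, at ranks of 29844, 47498 and 43764 in aged WT and 41383, 46533 and 60813 in aged Mlkl-/-, as were 0.841% of all regions in that direction and 0.0549% in the other. A region downstream of Klf6 (chr13:5870270-5871110) was held by none of the young and 5 of the 6 aged full lists, and an intronic one of Nr4a1 (chr15:101261211-101261824) by 1 young and 5 aged lists. A site 6.45 kb upstream of Zfp36 (chr7:28386332-28387037) was called in all 3 young Mlkl-/- and all 6 aged full lists and in none of the 3 young WT lists, with an age change at equal length of 0.42 ± 0.26 (limma adjusted p = 0.368). Of all 71006 regions, 216 were called in all 3 young Mlkl-/- and none of the young WT full lists, and 92 the other way round. The Egr1, Klf6 and Nr4a1 sites stood low in the lists. At equal length the Egr1 site was called in 1, the Klf6 site in 2 and the Nr4a1 site in 1 of the 6 aged lists, and so their appearance and the greater length of the aged lists cannot be told apart. In equal-length lists the only member region called in 3 of 3 lists of 1 group and 0 of 3 of the other was the Zfp36 distal site, in the age comparison of WT and again in that of Mlkl-/-, beside 2.26% and 2.2% of all regions. There was none between the genotypes at 3 months (0.559% of all regions) or at 18 months (0.593%).

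No member region differed between Mlkl-/- and WT at the threshold. In limma 0 of 35 passed at 3 months (0.0% of all regions), 0 of 35 at 18 months (0.0%) and 0 of 35 over both ages (0.0%), with 2, 2 and 3 of 35 at an unadjusted p under 0.05, beside 5.36%, 5.1% and 6.2% of all regions. The smallest unadjusted p was at the upstream site of Nr4a1 (chr15:101246159-101246868), named after its values were seen. It ranked 1730.5, 1270 and 795.5 for young WT and 3009.5, 2706 and 5073.5 for young Mlkl-/- lists. Ranks for aged lists were 1068, 1622.5 and 3590 (WT) and 7158.5, 5134.5 and 4122 (Mlkl-/-). At each age every Mlkl-/- list ranked it below every WT list, an order whose share over all regions was not counted. The difference over both ages was −0.47 (limma adjusted p = 0.763). For the Nr4a1 locus the difference was −0.61 ± 0.17 (limma adjusted p = 0.884). The distal Zfp36 site had a difference at 3 months of −0.44 (limma adjusted p = 0.917). Every young Mlkl-/- list ranked it below every young WT list, and the share of all regions in this order was not counted either. For the age change to differ between genotypes, 0 of 35 regions passed in limma (0.0% of all regions), and 0 of 35 had an unadjusted p under 0.05 (4.76% of all regions).

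Among related genes, between 0 and 1 region of a list passed with age, shares near the 2.72% of all regions. For the 14 other genes of the EGR, NR4A, IER, ZFP36 and DUSP families, 1 of 33 tested regions passed with age, the start of Nr4a3 (chr4:48044453-48045455), which encodes the remaining orphan receptor of the family. Of the equal-length lists, 1 young and all 6 aged held it, and it rose by 1.05 ± 0.23 (limma adjusted p = 0.00824). Of the full lists, 3 young and all 6 aged held it. The paralogs of Klf2 and Klf6 had 0 of 40 tested regions past the threshold in limma and 6 of 40 at an unadjusted p under 0.05, beside 22.1% of all regions. For 27 further immediate-early genes, 1 of 71 tested regions passed, 717 bp from a start of Mcl1, an anti-apoptotic BCL2 family gene, which fell by 1.19 (SE 0.23, limma adjusted p = 0.00411). For 17 upstream regulators such as serum response factor, CREB and their partners, 1 of 53 passed, an intronic region of Creb1 held by none of the young and all 6 of the aged equal-length lists, which rose by 1.35 ± 0.21 (limma adjusted p = 0.000714). For the 7 AP-1 genes, which belong to the same early response, 1 of 23 passed, the start of Jun, which fell by 0.71 (SE 0.13, limma adjusted p = 0.00212). For these regions of related genes, fits with list length or Y-linked summits as a covariate are not given.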

How the data were processed

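ATAC-seq of HSCs was measured in 12 libraries. The authors mapped reads to mm10 with Bowtie2 2.5.3 and called peaks per library with MACS2 2.2.7.1 (versions per the submitters' processing notes), and the score in the deposited lists is the −log10 of the q-value of each summit. Such scores depend on the depth and background of a library, so they were used only to filter and rank within a list. The lowest deposited scores lay between 2.00 and 2.01, and a minimum of 3 was applied on chromosomes 1 to 19, X and Y. Depth was not given in the lists.

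Regions, equal-length lists (35714 summits), normal scores and loci were built as described above, and uncalled regions shared the lowest rank. Tests used limma 3.58.1 (trend) in R 4.3.3 in 1 fit of the 12 libraries with 7 contrasts, adjusted over all regions or loci tested. They were run on simulated lists of age over both genotypes, where 174 of 200 regions shifted by 1.5 normal scores (87.0%) and 0 others passed among 36830. The shifted regions were those called in all 12 lists, and the shift was larger than any change at a member region. The simulated lists did not differ in length with age, and their noise was drawn independently with the same SD for all regions. Smaller changes, less often called regions, age-linked list length, deviations shared by regions of a library and unequal spreads were therefore not covered. Libraries are separate pools, and 3 against 3 alone cannot give an exact permutation p under 0.1. Annotation was GENCODE basic M21. Sequence was read with pysam 0.24.0 and samtools 1.23.1, and motifs were sought up to 100 bp from a summit on either strand. Other steps used Python 3.11.15 with pandas 2.3.3, numpy 2.4.6, scipy 1.17.1 and matplotlib 3.10.9.

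Regions named are those past the threshold in any contrast, the highest at each member's own start, and the 5 with the largest age change, with others marked in the text. Related genes are named only if a region passed. Members and lists were chosen with earlier results of these data known, and the study's own tables of changed regions list several members. As alternatives, results were recomputed with all summits or those scoring at least 5, with unequal lists or a catalogue from equal-length lists, with windows of 100 and 500 bp, with a minimum of 2 or 6 lists, with percentiles, with pairs of groups fitted apart, at an adjusted p under 0.05, with a replicate block, without each library, with 9 libraries only (those sharing an unexplained tag in the deposited names), with list length or Y-linked summits as a covariate, and with gene flanks of 2 and 50 kb.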

Additional observations from a re-analysis of the deposited data

How the results depend on the processing

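Of the 12 named regions, only the distal Zfp36 site, 2.77 kb upstream, passed the threshold with age. Its change was below 0 in all 26 alternatives, among them the main fit judged at an adjusted p under 0.05. It passed in 21 of them, including that looser threshold, which it had to meet, and all 12 fits that left out 1 library. It did not pass with scores of at least 5 (−0.91, limma adjusted p = 0.0181), windows of 500 bp (−0.06, adjusted p = 0.805, merged with its neighbour), list length as a covariate (−1.06, adjusted p = 0.06), single-copy Y summits as a covariate (−1.17, adjusted p = 0.0172) or the 9 tagged libraries (−1.18, adjusted p = 0.0139). The count of member regions changed with age was thus 1, and 0 under each of these 5 settings and with gene flanks of 2 kb, which leave the site out. It was 4 at an adjusted p under 0.05, at which age in WT gave 1, and it ranged from 1 to 2 when 1 library was left out, the higher without Aged WT 2, where the Egr1 start passed. Over all regions the count of 1029 became 61 with list length, 331 with Y summits, 201 with 9 libraries, 2030 with unequal lists and 2928 at an adjusted p under 0.05, and it was 665 to 1048 when 1 library was left out. The cause was not tested.

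With the replicate block, the member count with age was 1 and the Zfp36 change −1.14 (limma adjusted p = 0.00626), and no other count of member regions or loci changed at this threshold, while the starts of Egr1, Ier2 and Dusp1 rose above an adjusted p of 0.05. Over all regions it gave 771 calls. Same-numbered libraries did not deviate together (18 correlations of their deviations from −0.301 to 0.128, 1 of them over 0.1), so the numbers were not taken as a pairing.

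All-or-none calls between 3 and 3 lists, 2 in the equal-length lists over the 4 comparisons, became 7 in unequal lists and 0 with windows of 500 bp. No locus passed in any setting. Changes near 0 turned sign. With Y summits as a covariate this was so for the starts of Egr2 (0.00283), Nr4a2 (−0.018) and Zfp36 at −0.979 kb (0.0203). When 1 library was left out, the Egr2 start ranged from −0.0312 to 0.0275 and the Nr4a2 start from −0.0113 to 0.145. The planned covariate of any Y-linked summit was constant over the lists and could not be fitted, and the single-copy form was chosen after seeing the data. Without read depth, a summit absent from a list was not detected there and cannot be called closed, and the number of libraries limits what small changes can show.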
